A study of Homo sapiens with 3 samples.

Results

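The lysosomal genes described here are 48 members of a list: the TFEB family of transcription factors, lysosomal membrane proteins, acid hydrolases and their helpers, and subunits of the vacuolar proton pump. They were followed on 3 Affymetrix arrays of MM1S cells, an established line from a human multiple myeloma. The first array holds untreated cells, which the labels place at 0 h, and the others hold cells exposed to FK866 at 10 nM, for 6 h in one case and 24 h in the other; the labels name no separate cultures. All cells were grown in RPMI-1640 with fetal bovine serum, antibiotics and glutamine. FK866 blocks NAMPT, the enzyme that recycles nicotinamide into NAD, so the comparisons ask how transcript levels differed early and late under NAMPT inhibition. No untreated array of 6 h or 24 h is among the samples, so FK866 and time in culture cannot be told apart.

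A member's probe sets were those that the platform annotation assigns to that gene alone, and those whose signal averaged 20 or more over the 3 arrays were kept. Of 124 such probe sets, 96 were kept, and they gave 46 of the 48 members a value, among 11330 genes measured by the same rule. The 2 members without a value were IDUA, an iduronidase, and GLB1, the lysosomal beta-galactosidase. The 3 probe sets of IDUA had signals from 0.9 to 26.9, and none reached the required mean. GLB1 had only a probe set shared with TMPPE, whose signal was 895 without FK866, 831 at 6 h and 812 at 24 h. The dimmest kept probe sets belonged to ATP6V1C1, ARSB and IDS, with mean signals of 20.6, 22.5 and 22.7, and the brightest of those left out to SGSH, HEXA and NPC1, with 19.2, 19.1 and 18.8. The 3 dimmest reached the mean of 20 only through their brightest array, which was the 6 h array for ATP6V1C1 and ARSB and the untreated array for IDS, and none of them gives its gene's value.

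The lysosome is an acidic compartment in which hydrolases break down proteins, glycans, lipids and nucleic acids. A rotary pump, the V-ATPase, acidifies it: its V1 sector hydrolyses ATP in the cytosol and its V0 sector carries protons through the membrane. TFEB, TFE3 and MITF bind the CLEAR element, an extended E-box found in the promoters of many lysosomal genes. They are held in the cytosol when mTORC1 on the lysosomal surface is active, so that their location in the cell, which arrays do not show, sets much of their activity. Plasma cells and myeloma cells, which secrete large amounts of protein, also rely on lysosomes and autophagy to dispose of protein that cannot be secreted.

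The promoters are shown first, because the TFEB family binds the CLEAR element and because the member with the largest difference can be set beside members with a site. RefSeq promoter windows of GRCh38.p14, from 250 bases before to 50 bases after a transcript start, were at hand for 33 of the 48 members, in 44 windows. Both strands were searched for the E-box CACGTG, for TCACGTG, which contains it, and for TCACGTGA, the core of the CLEAR element, which contains both. CACGTG lay in the windows of 9 of 33 members: LAMP1, CLN3, MCOLN1, CTSA, CTSD, GAA, NEU1, ARSB and ATP6V0D1. In all 9 it was part of TCACGTG on one strand or the other. Counted by window, 22.7% of member windows held TCACGTG, against 3.71% of all 35116 windows and 5.44% of 13489 windows of measured genes. The core TCACGTGA lay in 15.9% of member windows, 0.980% of all windows and 1.74% of windows of measured genes. Of 65 windows of other lysosomal genes, which are no members, 13 held TCACGTG and 7 the core. Of the 44 member windows, 10 and 7 did, so the sites were not particular to the members. The stretches below run 5′ to 3′ on the gene's strand, end before the start, and carry the CACGTG sites in capitals with the T before or the A after them where present.
LAMP1, chr13:113297027-113297236, plus strand: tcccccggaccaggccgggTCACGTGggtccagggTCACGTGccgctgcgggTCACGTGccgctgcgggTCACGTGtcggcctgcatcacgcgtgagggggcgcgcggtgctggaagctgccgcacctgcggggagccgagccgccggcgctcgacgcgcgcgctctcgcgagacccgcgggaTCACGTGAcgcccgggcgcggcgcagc
CLN3, chr16:28492079-28492124, minus strand: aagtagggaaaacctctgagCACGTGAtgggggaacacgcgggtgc
MCOLN1, chr19:7522563-7522623, plus strand: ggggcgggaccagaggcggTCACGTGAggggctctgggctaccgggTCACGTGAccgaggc
CTSA, chr20:45891273-45891334, plus strand: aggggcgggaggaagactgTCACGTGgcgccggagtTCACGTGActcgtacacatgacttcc
CTSD, chr11:1763949-1763994, minus strand: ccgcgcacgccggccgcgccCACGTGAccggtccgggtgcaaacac
GAA, chr17:80101485-80101575, plus strand: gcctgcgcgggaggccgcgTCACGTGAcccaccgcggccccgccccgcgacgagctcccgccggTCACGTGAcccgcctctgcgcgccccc
NEU1, chr6:31862922-31862967, minus strand: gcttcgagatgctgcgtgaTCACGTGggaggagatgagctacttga
ARSB, chr5:78986093-78986138, minus strand: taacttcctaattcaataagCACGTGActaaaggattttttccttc
ATP6V0D1, chr16:67481191-67481236, minus strand: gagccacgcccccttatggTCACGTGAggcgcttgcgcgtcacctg

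LAMP1 carried the most sites, 6 in its window, of which 5 are printed and the last spans the start. MCOLN1 and GAA each carried 2 full TCACGTGA cores before the start. The site of ARSB lay 160 bases before the upstream of its 2 listed starts. GLA, the member with the largest difference at 24 h, had no CACGTG in its window, whose 250 bases before the start are shown for comparison.
GLA, chrX:101407926-101408175, minus strand: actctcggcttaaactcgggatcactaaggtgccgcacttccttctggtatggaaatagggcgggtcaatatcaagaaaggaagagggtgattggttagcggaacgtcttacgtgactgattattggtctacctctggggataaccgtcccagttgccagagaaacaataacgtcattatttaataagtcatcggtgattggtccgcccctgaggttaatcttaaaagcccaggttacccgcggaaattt
A match of letters is a description of the sequence, not of binding, and its absence concerns this window only.

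Signals are in arbitrary units on a linear scale. Values below 16 were raised to this floor, log2 was taken, and each gene has the value of its brightest kept probe set. With 1 array per group no test was possible, no difference has a replicate check, and sizes of at least 1.5-fold and at least 2-fold serve as descriptions. Overall levels were not equal among the arrays: the median of all genes lay at -0.10 at 6 h and -0.13 at 24 h against untreated cells on the log2 scale, which sets the scale for every difference given here. Centring on array medians placed that median at 0.13 and 0.12 instead, and quantile normalization at 0.034 and 0.049, so small differences below 0 have a direction only relative to other genes. As a measure of RNA quality, the log2 signal at the 3′ end of GAPDH exceeded that at the 5′ end by 0.20 to 0.32 over the arrays, and that of ACTB by 2.25 to 2.55. Where members had several kept probe sets, their log2 differences scattered with a pooled SD of 0.31 at 6 h and 0.32 at 24 h over 22 genes. All kept probe sets of a gene had the same sign for 6 of these 22 genes at 6 h and for 10 at 24 h. The 3 comparisons share arrays by pairs, so they are not independent of each other.

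The cells carried the markers of their label. All 8 plasma cell markers examined had signals between 423 and 9013 on every array. Of 8 macrophage markers, genes of a cell type rich in lysosomes, 6 were under the floor on all arrays, among them CD14 and CD163, and the 8 summed to 88.0 without FK866, 67.0 at 6 h and 73.6 at 24 h. The defining markers of that cell type were thus at or near the floor on each array. T and NK cell markers summed to between 50.4 and 78.5 over 5 genes. The 6 stroma markers summed to 155, 121 and 72.4, and COL1A1 alone went from 102 to 53.4 and 19.3 while COL3A1 stayed under the floor. The part of such cells in the results was not tested.

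At 6 h the lysosomal genes stayed close to their untreated level. Their median log2 difference was -0.02, against -0.10 for all genes, and it turned positive after quantile normalization, at 0.11, and with centring on array medians, at 0.20. Of 46 members, 0 were at least 1.5-fold higher, where 5.38% of all genes were, and 1 was at least 1.5-fold lower, where 10.4% were. The log2 difference lay within 0.25 of 0 for 35 of 46 members, 76.1%, against 52.3% of all genes and 59.9% of the 7710 genes with a mean signal of 100 or more. At 2-fold, 0 were higher, with a background of 1.46%, and 0 lower, with a background of 3.12%. Above the median of all genes lay 31 members and below it 15. Among the 39 members with a mean signal of 100 or more, 0 passed either size in either direction at 6 h. The background among the brighter genes was 2.84% higher and 5.84% lower at 1.5-fold, and 0.61% and 1.35% at 2-fold. A difference in all cells and a larger one in part of them cannot be told apart in such bulk samples.

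At 24 h a few hydrolases were lower while most of the organelle's genes again lay close to untreated cells, 30 of 46 within 0.25 of 0, or 65.2% against 49.9% of all genes. GLA, ARSB, CTSB, CTSZ and SGSH were at least 1.5-fold lower, and CTSL was at least 1.5-fold higher. All 6 are hydrolases, as are many members: 20 of 46 are proteases, glycosidases or sulfatases. Of these 20, 13 lay below 0 at 24 h, where 65.6% of all genes did. The 5 lower members make 10.9% of 46, near the background of 13.2% of all genes, and the 1 higher member 2.17%, against 4.52%. At 2-fold the counts were 2 lower, GLA and ARSB, with a background of 4.02%, and 0 higher, with a background of 1.11%. The shares of members are thus close to or below those of genes at large. Among the 39 brighter members 3 were at least 1.5-fold lower, with a background of 8.43%, and 0 higher, with 2.33%. At 2-fold 1 of them was lower, with a background of 1.95%, and 0 higher, with 0.467%. The split depended on the scaling: 1 higher and 2 lower after quantile normalization, and 3 higher (CTSL, ATP6V1C1 and ATP6V1E1) and 2 lower with centring on array medians. The median member difference was -0.04, against -0.13 for all genes, and it too turned positive with both scalings (0.13 and 0.20).

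**Figure D1:**
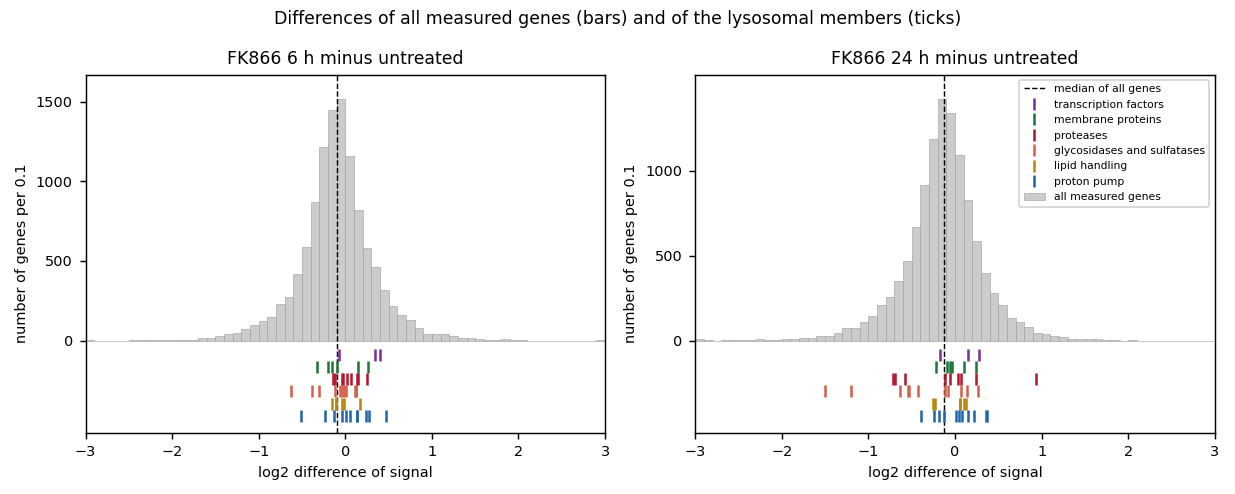
Number of genes per 0.1 of log2 difference from untreated cells (bars, 11330 genes; values beyond 3 either way are counted in the end bins) at 6 h (left) and 24 h (right), with the 46 lysosomal members as ticks coloured by role and the median of all genes dashed. At 6 h the members lie between -0.63 and 0.47, and at 24 h GLA at -1.50 and ARSB at -1.20 stand on the lower side and CTSL at 0.93 on the higher side.

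The transcription factors come first, since they act upstream of the other members. TFEB, the founding regulator of lysosomal genes, gave signals of 129 without FK866, 164 at 6 h and 156 at 24 h. Both treated arrays were thus higher, by 0.35 and 0.28 on the log2 scale, by the 1 kept probe set. MITF, best known from melanocytes and osteoclasts, had signals of 171, 226 and 190, and its other kept probe set 172, 216 and 188. The probe sets gave similar differences, 0.40 and 0.33 for 6 h and 0.15 and 0.13 for 24 h. TFE3, the third relative, had signals of 422, 401 and 376, differing by -0.07 and -0.17, but its dimmer probe set was higher at both times, at 0.17 and 0.28. None of the 3 reached 1.5-fold at either time by the values as deposited, and MITF did at 6 h with centring on array medians, at 0.63. At 6 h, 1343 of 11330 genes had a difference as high as TFEB or higher, and 1135 as high as MITF or higher.

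Of the 6 membrane proteins, 4 lay within 0.25 of 0 at 6 h and 6 at 24 h. All 6 had a mean signal of 100 or more, and of all genes so bright 59.9% and 57.1% lay as close. LAMP1, a major glycoprotein of the lysosomal membrane, had signals of 5091 before treatment and 4779 on both later arrays. LAMP2, its relative needed for chaperone-mediated autophagy, had 2134, 1912 and 1833, a difference of -0.16 and then -0.22. SCARB2, the receptor that carries glucocerebrosidase to the lysosome, had 2979, 2604 and 2855. Its 4 probe sets all lay below 0 at 6 h, from -0.48 to -0.19, and from -0.12 to 0.00 at 24 h. By their brightest probe sets these 3 differed at 6 h by -0.19 to -0.09, near the shift of all genes.

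NPC1, which exports cholesterol from the lysosome, was slightly higher, with signals of 293, 351 and 314, and its second, dim probe set differed by -0.67 at 24 h. MCOLN1, a calcium channel of the membrane, had 120, 133 and 117. CLN3, the membrane protein lost in juvenile Batten disease, had 115, 91.9 and 136. Its second probe set went the other way at both times (0.06 and -0.25 against -0.32 and 0.24), so no direction can be given for it.

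**Figure D2:**
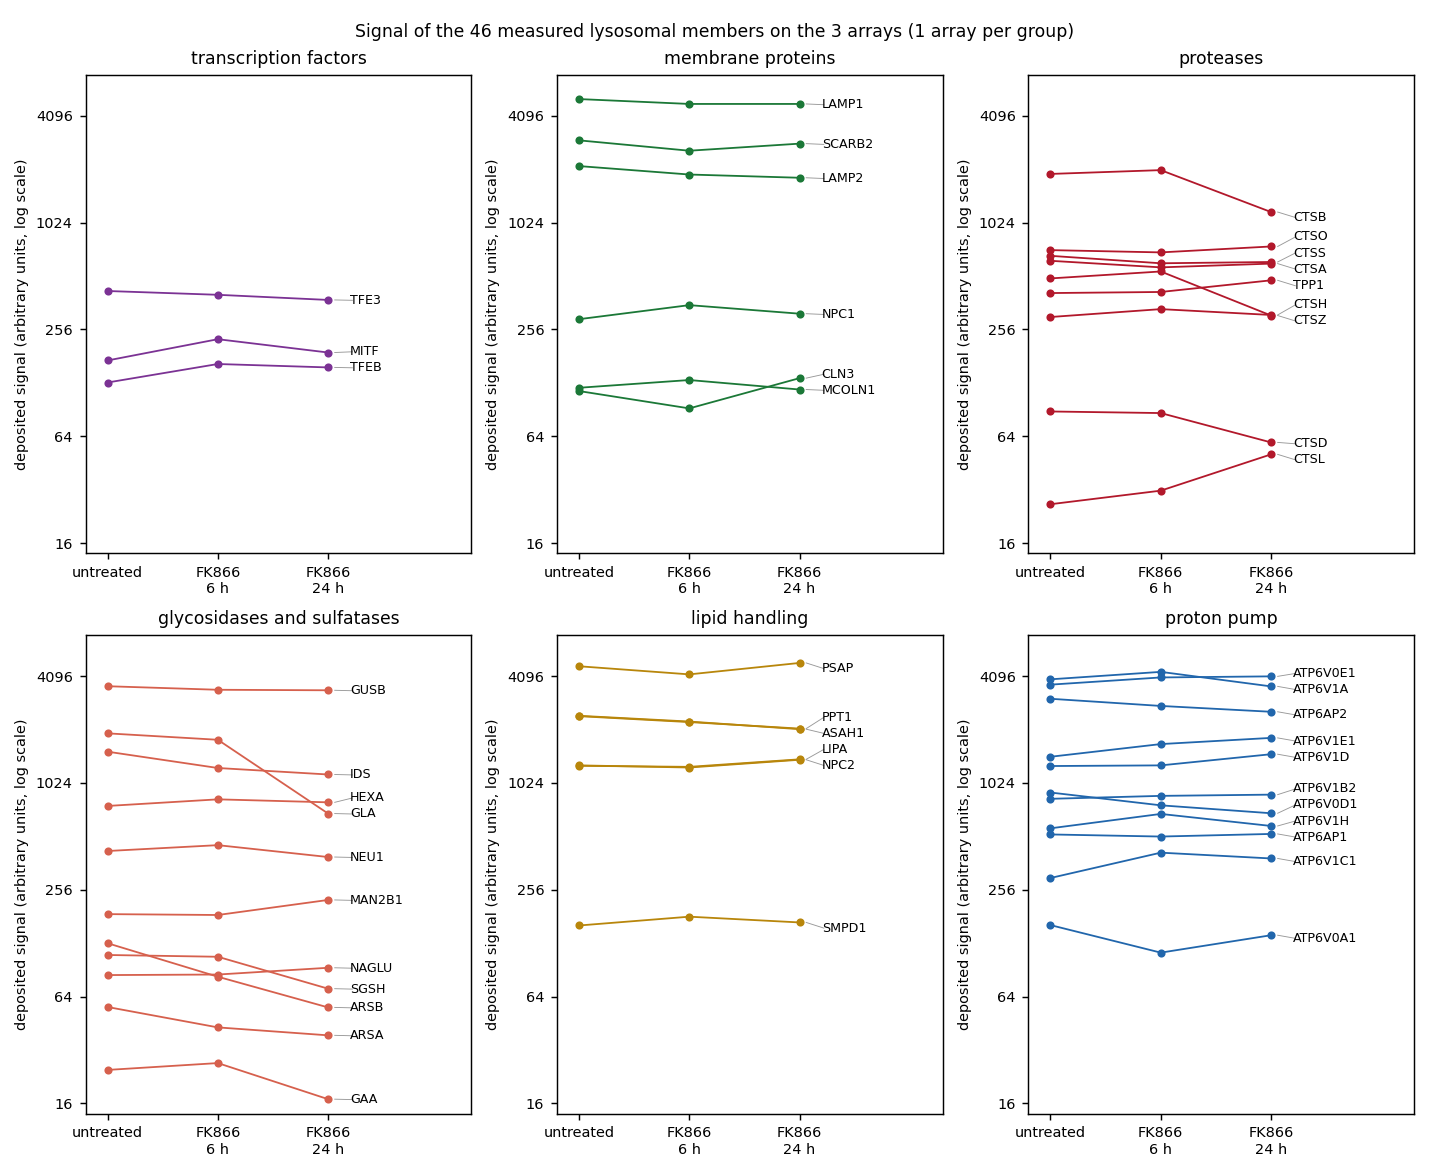
Deposited signal (arbitrary units, log scale) of each of the 46 measured members in untreated cells and after 6 h and 24 h of FK866, 1 array per group, drawn by role, each line being the brightest kept probe set of a gene. Most lines are flat; those of GLA, from 1949 to 688, and of CTSB, from 1927 to 1175, slope down between 6 h and 24 h.

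Among the 9 proteases, CTSB and CTSZ were at least 1.5-fold lower at 24 h and CTSL was at least 1.5-fold higher. CTSB, a cysteine protease with both endo- and exopeptidase activity, gave signals of 1927 without FK866, 2024 at 6 h and 1175 at 24 h. The 24 h array stood below both others, 1.64-fold below untreated cells. All 5 kept probe sets of CTSB were lower at 24 h, from -0.87 to -0.26, although they ranged from -0.33 to 0.52 at 6 h. The brightest may cross-hybridise, and without such probe sets CTSB was at -0.87 at 24 h. CTSB missed 1.5-fold after quantile normalization and with centring on array medians, at -0.55 and -0.47.

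CTSZ, a carboxypeptidase, had a similar profile, with signals of 497, 543 and 307 and a difference of -0.69 at 24 h by its single kept probe set. That probe set may cross-hybridise. It missed 1.5-fold with quantile normalization, centring and subtraction of the median gene difference, the values running from -0.57 to -0.45. CTSD, the main aspartic protease of the lysosome, had signals of 88.3, 86.5 and 59.1, and at 1.49-fold lower stood just short of 1.5-fold. The 3 genes were level at 6 h, where they differed by 0.07, 0.13 and -0.03. Against the 6 h array, CTSB was at least 1.5-fold lower under all 9 alternatives, from -0.83 to -0.63, and CTSZ under the 8 that measured it, from -0.82 to -0.76. For both genes the alternatives of floor and filter could not change the value, nor could the mean over probe sets for CTSZ.

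CTSL, a cysteine endopeptidase, differed in the other direction, with signals of 26.5, 31.6 and 50.6. It was 1.91-fold higher at 24 h, and 149 of 11330 genes differed as much or more upward. Its only kept probe set may cross-hybridise. Its signals are close to the floor, and with a floor of 64 or with log2(signal + 32) it was not 1.5-fold higher, the values being 0.00 and 0.50.

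The other proteases stayed near untreated cells. CTSO had signals of 717, 696 and 752, CTSA, the protective protein that shields the galactosidase and neuraminidase, 624, 573 and 602, and CTSH, an aminopeptidase, 301, 333 and 309. CTSS, a cathepsin that trims the invariant chain in antigen-presenting cells, had 666, 604 and 615 by its brightest probe set. Its 3 probe sets ranged from -0.73 to 0.09 at 24 h. The lowest and the brightest are both of the kind that may cross-hybridise, and the remaining probe set was at 0.09. TPP1, a tripeptidyl peptidase, had 411, 416 and 484, and all 3 of its kept probe sets were higher at 24 h, from 0.06 to 0.53.

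The glycosidases and sulfatases had a median of -0.43 at 24 h over 11 measured members, against -0.13 for all genes. Below 0 lay 8 of 11, where 65.6% of all genes did, and 6 of 11 lay below the median of all genes. It stayed below 0 after quantile normalization and with centring, at -0.25 and -0.18. With a floor of 64 the median was -0.08, and among the 6 members with a mean signal of 100 or more it was -0.09, which is 0.025 above the median of genes so chosen. GLA, the alpha-galactosidase A whose loss causes Fabry disease, gave signals of 1949 without FK866, 1793 at 6 h and 688 at 24 h. The untreated and 6 h arrays were close, and the 24 h array stood apart. GLA was 2.83-fold lower at 24 h, and 120 of 11330 genes had a difference as low or lower. This rests on 1 probe set, the only one assigned to GLA. GLA stayed at least 2-fold lower under the alternatives that could move its value. It was at -1.34 after quantile normalization, -1.26 with centring, -1.37 with the median gene difference subtracted and -1.46 with log2(signal + 32). The other alternatives could not change its 1 bright probe set and left it at -1.50. Against the 6 h array, the values lay between -1.38 and -1.34.

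ARSB, the sulfatase of dermatan sulfate, had signals of 128, 82.8 and 55.6, so each array was lower than the one before in time. By its brightest probe set, which may cross-hybridise, it was lower by 1.54-fold at 6 h and by 2.30-fold at 24 h. The other kept probe sets differed by -0.42 and 0.37 at 6 h and by -0.35 and -0.22 at 24 h. Their mean with it was -0.59 at 24 h, and by its 1 probe set not named as liable to cross-hybridise ARSB differed by 0.37 at 6 h and -0.22 at 24 h. That probe set is the one kept only through its 6 h signal. SGSH, the sulfamidase of heparan sulfate, had 110, 107 and 70.9, a 1.55-fold lower signal at 24 h by 1 kept probe set. It was not 1.5-fold lower in 4 of 8 alternatives: quantile normalization at -0.43, centring at -0.38, subtraction of the median gene difference at -0.50 and log2(signal + 32) at -0.46.

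Further members of this role were lower without reaching 1.5-fold by their brightest probe sets. ARSA, the sulfatase of sulfatide, had signals of 55.9, 42.9 and 38.7. GAA, the acid glucosidase that clears glycogen, had 24.7, 27.0 and 16.9, the last next to the floor. IDS, the sulfatase deficient in Hunter syndrome, had 1536, 1243 and 1143. IDS had 7 kept probe sets, of which 1 was kept only through its untreated signal and had to be lower afterwards. The other 6 lay below 0 at 24 h, from -0.56 to -0.43, and 5 of 6 at 6 h, from -0.97 to 0.05. Without probe sets that may cross-hybridise, IDS was past 1.5-fold lower at 6 h, at -0.97. By the mean over probe sets it was so at 24 h, at -0.66, a mean that includes the probe set kept only through its untreated signal.

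The remaining glycosidases were level. GUSB, the beta-glucuronidase, had signals of 3593, 3431 and 3408, and HEXA, the alpha chain of the hexosaminidases, 760, 828 and 796, though its dim second probe set differed by -0.58 and -0.63. NEU1, a sialidase, had 423, 457 and 392, and NAGLU, a glucosaminidase of heparan sulfate breakdown, 84.6, 85.2 and 93.0. MAN2B1, the acid mannosidase, was the highest of the role at 24 h, with 187, 185 and 224.

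**Figure D3:**
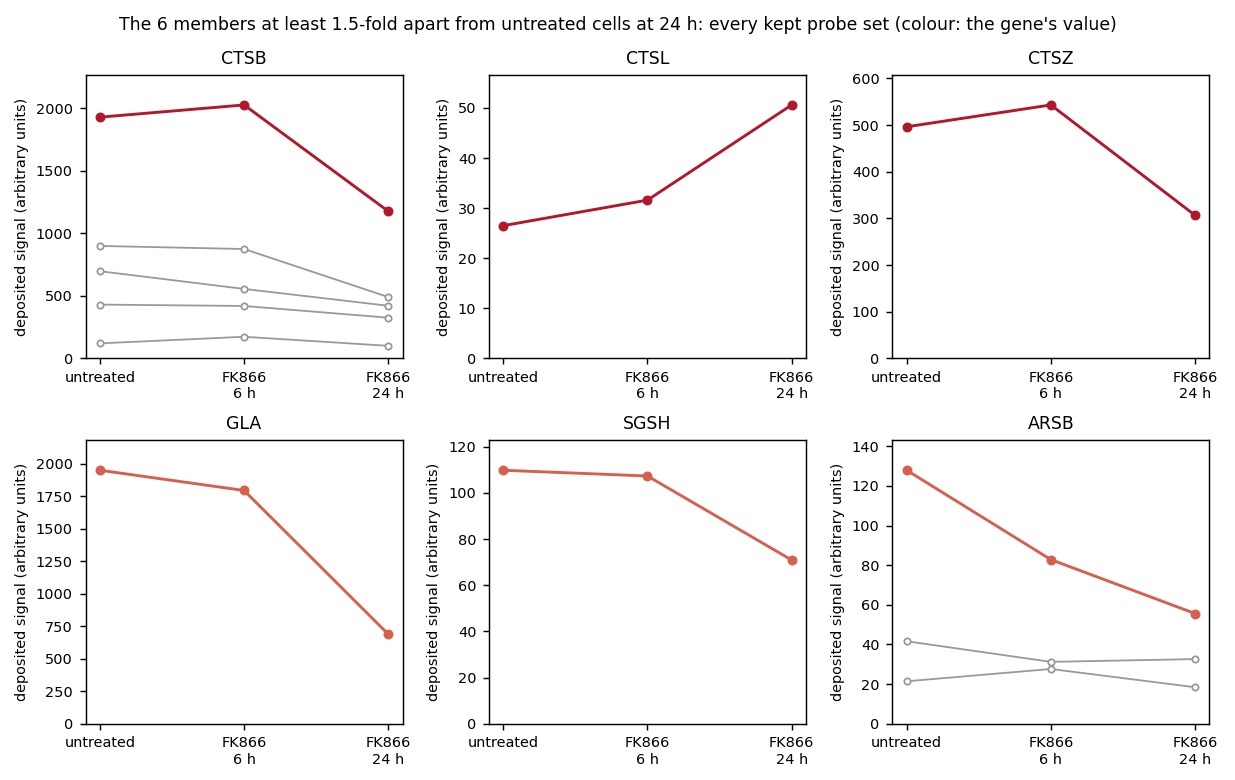
Deposited signal (arbitrary units, linear axis from 0) on the 3 arrays of the 6 members at least 1.5-fold apart from untreated cells at 24 h; each line is a kept probe set, coloured where it gives the gene's value and grey otherwise. GLA, CTSB, CTSZ and SGSH are lower at 24 h than at 6 h, the brightest probe set of ARSB goes from 128 to 55.6, and CTSL lies at 26.5 in untreated cells and 50.6 at 24 h.

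Genes of lipid handling differed little, with 6 of 6 within 0.25 of 0 at 6 h and 5 of 6 at 24 h. All 6 had a mean signal of 100 or more, and of all genes so bright 59.9% and 57.1% lay within 0.25. PSAP, the precursor of the saposins that present sphingolipids to their hydrolases, had signals of 4656, 4190 and 4861. ASAH1, the acid ceramidase, had 2448, 2272 and 2058, and its 4 kept probe sets ran from -0.37 to 0.13 at 24 h. SMPD1, the acid sphingomyelinase, had 161, 181 and 168. Over 15 members with several probe sets of a mean signal of 100 or more, the pooled SD between these was 0.22 at both times. PSAP and SMPD1 differed from untreated cells by less at both times and ASAH1 by slightly more at 24 h, at -0.25. That SD does not measure the spread between arrays.

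LIPA, the acid lipase of cholesterol esters, had signals of 1279, 1262 and 1391, and NPC2, which hands cholesterol to NPC1, 1286, 1251 and 1383. PPT1, which removes palmitate from proteins, had 2436, 2256 and 2073. LIPA and NPC2 were slightly above untreated cells at 24 h, at 0.12 and 0.11, and PPT1 slightly below, at -0.23.

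The proton pump showed no member at least 1.5-fold apart at either time, except with centring on array medians, where ATP6V1C1 was higher at 6 h, at 0.70, and ATP6V1C1 and ATP6V1E1 at 24 h, at 0.61 and 0.60. By the values as deposited, 8 of 11 members lay within 0.25 of 0 at 6 h and 8 of 11 at 24 h. Of all genes with a mean signal of 100 or more, which these 11 had, 59.9% and 57.1% did. Of the V1 sector, 6 of 6 members lay above 0 at 6 h, where 4133 of 11330 genes did. All 6 also lay above the median of all genes, with a median of 0.19. The other scalings raised the median of all genes, so a V1 median above 0 under them adds no support. Without probe sets that may cross-hybridise, 5 members were measured, with a median of 0.07 and 5 of 5 above 0. The values of ATP6V1C1 and ATP6V1H come from such probe sets. By the mean over probe sets 3 of 6 V1 members were above 0 and 5 of 6 above the median of all genes, with a median of 0.01. ATP6V1A, the catalytic subunit, gave signals of 3930 without FK866, 4329 at 6 h and 3585 at 24 h, and its second probe set was lower at both times, at -0.22 and -0.19. ATP6V1B2, the partner subunit in the catalytic ring, had 833, 866 and 880. The ring's subunits thus differed by at most 0.14 by their brightest probe sets.

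ATP6V1C1, the clamp between the stator stalks, had the highest difference of the pump, with signals of 298, 414 and 384. Leaving out the probe set that was kept only through its 6 h signal, the other 3 lay above 0 at 6 h, from 0.07 to 0.47, but ran from -0.34 to 0.37 at 24 h. ATP6V1E1, a stalk subunit, had 1438, 1696 and 1837, higher by 0.24 and 0.35. ATP6V1D, of the central rotor, had 1275, 1286 and 1487, and ATP6V1H, which holds the sectors together and restrains ATP hydrolysis when they part, 568, 685 and 586. The second, dim probe set of ATP6V1H differed by -0.64 and -0.77.

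The V0 sector had medians of -0.24 at 6 h and -0.19 at 24 h, which moved to -0.12 and -0.018 with quantile normalization and to -0.0098 and 0.057 with centring. ATP6V0A1, the membrane subunit of the proton path, had signals of 162, 113 and 142, the lowest difference of the pump at 6 h with -0.52. ATP6V0D1, which couples rotor and membrane ring, had 904, 766 and 691, differing by -0.24 and -0.39. ATP6V0E1, a small membrane subunit, had 3668, 4027 and 4084, higher by 0.13 and 0.16, but its 7 kept probe sets ran from -0.38 to 0.18 and from -0.40 to 0.34. The accessory subunits were level: ATP6AP1 had 525, 511 and 528, and ATP6AP2, also known as the prorenin receptor, 3053, 2782 and 2579.

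**Figure D4:**
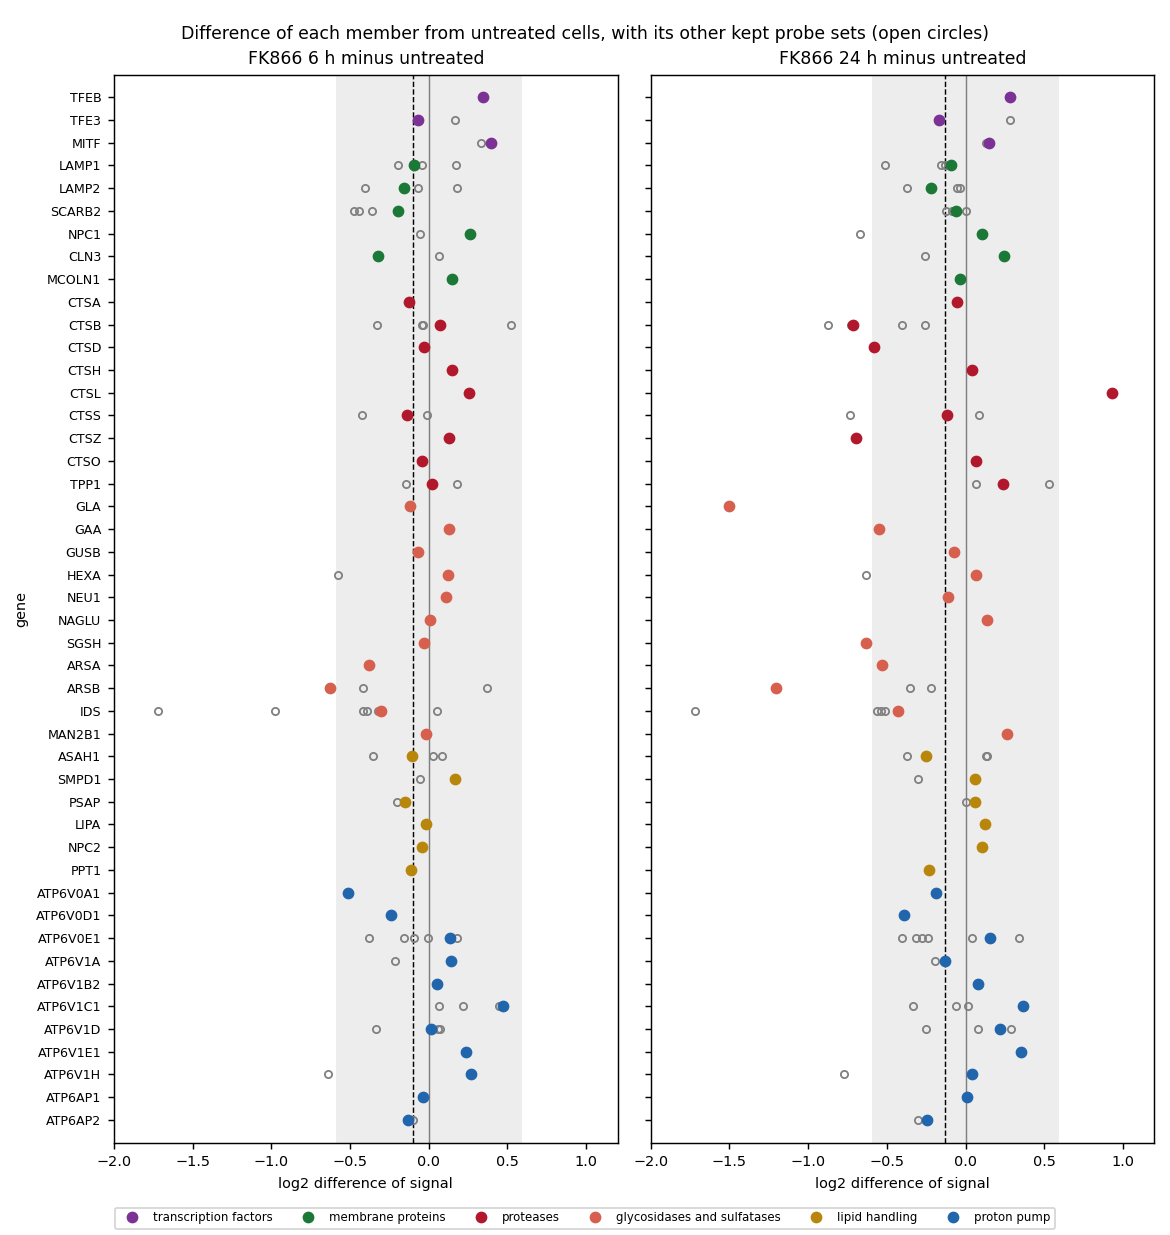
Log2 difference from untreated cells at 6 h (left) and 24 h (right) for each of the 46 measured members (filled circles, coloured by role) and their other kept probe sets (open circles); the grey band spans 1.5-fold either way and the dashed line is the median of all genes. At 6 h only ARSB leaves the band by its brightest probe set, at -0.63, and at 24 h GLA, ARSB, CTSB, CTSZ, SGSH and CTSL do.

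The treated arrays were also compared with each other. GLA, CTSB, CTSZ, GAA and SGSH, 5 members, were at least 1.5-fold lower at 24 h than at 6 h. They make 10.9%, near the 7.55% of all genes. CTSL was the 1 member at least 1.5-fold higher, 2.17% against 4.69%. GLA was the 1 member at least 2-fold lower, with 1.84% of all genes, and 0 were 2-fold higher, with 1.05%. Of the 39 brighter members, 3 were at least 1.5-fold lower, with a background of 3.53%, 1 at least 2-fold lower, with 0.661%, and 0 higher at either size, with 1.74% and 0.246%. The median member difference was -0.08, against -0.04 for all genes. GAA, with a 24 h signal of 16.9, was not 1.5-fold lower with log2(signal + 32), at -0.27, or with a floor of 64, at 0.00. SGSH was not 1.5-fold lower in 4 of 8 alternatives, the 3 scalings and log2(signal + 32), with values from -0.58 to -0.44.

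Members with and without CACGTG in the promoter window overlapped in their differences. At 24 h the 9 members with the site ran from -1.20 to 0.24 with a median of -0.11, and the 22 measured members whose windows lacked it from -1.50 to 0.93 with a median of 0.05. At 6 h the medians were -0.09 and -0.02. Of the members printed above with several sites in a window, LAMP1 differed by -0.09 at 24 h, MCOLN1 by -0.03, CTSA by -0.05, GAA by -0.55 and CLN3 by 0.24. Of the members at least 1.5-fold apart at 24 h, ARSB had the site, GLA, CTSZ and CTSL lacked it in their windows, and CTSB and SGSH had no window to search.

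Other genes of the lysosome, a list of 50 that are no members, were measured for 39. Their median difference was -0.01 at 6 h and -0.11 at 24 h, against -0.10 and -0.13 for all genes. At 6 h, 2 were at least 1.5-fold higher, 5.13% against 5.38% of all genes, and 1 lower, 2.56% against 10.4%. At 24 h 3 were higher, 7.69% against 4.52%, and 3 lower, 7.69% against 13.2%, so these few genes make shares near or below those of all genes in 3 of 4 counts. The lowest at 24 h were LAPTM4B (361, 340 and 221 on the 3 arrays), LAPTM4A (3886, 2858 and 2387), both small membrane proteins of late endosomes, and LGMN, the asparaginyl endopeptidase that matures cathepsins (518, 455 and 342). The highest at 24 h was PLA2G15, a lysosomal phospholipase, with signals of 127, 155 and 225 and a difference of 0.83. It was followed by ATP6V1E2, an isoform of the stalk subunit, with 36.2, 37.0 and 55.8, and SUMF1, the enzyme that activates all sulfatases, with 327, 491 and 494. SUMF1 thus differed by 0.59 at both times.

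At 6 h, the extremes of that list included dim genes. CTSF, a cathepsin, had signals of 68.8, 33.5 and 69.9, at least 2-fold lower at 6 h alone. PLD3, an exonuclease of the lysosome, had 22.6 without FK866, 47.4 at 6 h and 8.8 at 24 h, and was kept only through its 6 h signal, so that its place among the 2 higher genes is no finding. ATP6V0A2, an isoform of the V0 membrane subunit, and GNPTG, part of the enzyme that tags hydrolases with mannose 6-phosphate, differed by -0.48 and -0.45. SLC38A9, the arginine sensor of mTORC1 on the lysosome, had 341, 477 and 382, but its dim second probe set, kept only through its untreated signal, differed by -1.50 at 6 h and -1.11 at 24 h.

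The genes whose products hold TFEB in the cytosol or release it lay mostly near untreated cells. Of 19 listed genes 18 were measured, 15 of them (83.3%) within 0.25 of 0 at 6 h and 15 at 24 h. Of all genes 52.3% and 49.9% were, and of those with a mean signal of 100 or more 59.9% and 57.1%. The medians of the list were -0.11 at 6 h and -0.02 at 24 h. RPTOR, the mTORC1 subunit that binds substrates, was the lowest at 6 h, with signals of 42.3, 22.6 and 41.8, its 6 h signal being close to the floor. It was the 1 gene of the list at least 1.5-fold apart at 6 h, 5.56% against 15.8% of all genes in either direction, and there were 0 at 24 h, against 17.7%. RRAGA, a Rag GTPase that recruits TFEB to the lysosome, was the highest at both times, with 242, 290 and 316. YWHAZ, a 14-3-3 protein of the kind that retains TFEB, was the lowest at 24 h, at -0.43.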

How the data were processed

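The values deposited by the authors are linear intensities of 54675 probe sets, measured once on each of 3 arrays. Total RNA was turned into biotinylated cRNA by the usual Affymetrix procedure, per the labels' protocols; the summary of probes, background correction and scaling by the authors are not given in the sources used here. GEO's platform annotation, dated 2016, gave 1 gene symbol to 41097 probe sets, several to 1801 and none to 11777, and 0 symbols needed updating. Precision is limited by the number of arrays.

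Probe sets with a mean signal of 20 or more were kept, signals were floored at 16, log2 differences between arrays were taken, and the brightest kept probe set gave a gene's value. Each member is given with its signals, and members at least 1.5-fold apart from untreated cells in full. Of the other lysosomal genes, the 3 highest and 3 lowest at each time and any 2-fold apart are named, and of the TFEB regulators the extremes. Members and lists were chosen with earlier results of these data known. Kept probe sets whose other 2 arrays average under 20 were identified after the values were seen. The procedure was tested on simulated data. Alternatives covered scaling, floor, filter, summary of probe sets and probe sets that may cross-hybridise (names ending in _s_at or _x_at). Python 3.11.15, numpy 2.4.6, pandas 2.3.3 and matplotlib 3.10.9 were used.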

Additional observations from a re-analysis of the deposited data

How the results depend on the processing

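Every result rests on 1 array per group, so none has a replicate check, and dim members (GAA, CTSL, ARSA) are limited by the floor. No paired analysis was possible because each group holds 1 array. Of 106 values of members past 1.5-fold under the alternatives, 80 stayed past it, 25 did not and 1 changed sign: ARSB at 6 h, at 0.37 without the less specific probe sets (those that may cross-hybridise). Part of the 80 repeats a value by construction. Floor, filter and mean over probe sets cannot change a bright member with 1 probe set, such as GLA, so the count overstates the support. The median member difference moved with the scaling: at 6 h to 0.11 with quantile normalization, 0.20 with centring on array medians and 0.075 with the median gene difference subtracted, and at 24 h to 0.13, 0.20 and 0.085, and to -0.13 without the less specific probe sets. At 6 h, the 1 member at least 1.5-fold lower became 0 with each scaling, log2(signal + 32), the mean over probe sets and a mean signal of 100 or more, and the 0 higher became 2 with centring. Without the less specific probe sets the 1 lower member was IDS, at -0.97, in place of ARSB. At 24 h, the 5 lower became 2 with quantile normalization and with centring, and 3 with the median gene difference subtracted and with a mean signal of 100 or more. The 1 higher became 3 with centring, 2 without a filter, and 0 with a floor of 64, log2(signal + 32), a mean signal of 100 or more and without the less specific probe sets. The 2 members at least 2-fold lower became 1 under all alternatives except the subtraction and no filter, and the 0 at least 2-fold higher became 1 with each scaling. Between the treated arrays, the 1 member higher became 2 with quantile normalization, the subtraction and no filter, and 0 with a floor of 64, log2(signal + 32), a mean signal of 100 or more and without the less specific probe sets, and the 5 lower became 3 with log2(signal + 32) and with a mean signal of 100 or more. A filter or a higher floor leaves fewer dim genes by construction; for the other settings the cause was not tested.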
